A study of Rattus norvegicus with 8 samples.

Results

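The estrogen and progesterone receptors and their coregulators were followed here in the left ventricle of the pregnant rat heart after ischemia, the interruption of blood supply, and reperfusion. The set held 10 genes: the nuclear estrogen receptors Esr1 and Esr2, the nuclear progesterone receptor Pgr, the membrane estrogen receptor Gper1, the membrane progesterone receptor components Pgrmc1 and Pgrmc2, the steroid receptor coactivators Ncoa1, Ncoa2 and Ncoa3, and the corepressor Ncor1. A probe set, the group of array probes that reads a gene, was taken when the platform annotation gave it exactly 1 gene symbol and that symbol was one of the 10. All 10 genes were found, with 12 probe sets of the 15209 probe sets with 1 symbol, which covered 14497 genes. Esr1 and Pgrmc1 had 2 probe sets each and the other genes 1. The rule uses no measured value, but the 10 genes were chosen with earlier results of these data known. Shares of members called are therefore descriptions.

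Gene expression was measured on Affymetrix arrays of total RNA from the left ventricles of female rats late in pregnancy, which had been snap-frozen. The labels give 5 arrays as ILPD and 3 as placebo, and both groups carry the same label for ischemia and reperfusion. ILPD arrays came from hearts reperfused with a single bolus of 5 mg/kg of the agent, which the study's design text writes ITLD, taken here as the same agent, and its title names Intralipid, a lipid emulsion, and placebo arrays from hearts reperfused with vehicle. No array of a heart without ischemia or without pregnancy was analysed here, so each difference is between 2 reperfused groups. The labels do not say that the arrays of a group came from separate animals, so p-values cover only the spread among these arrays, and that spread may be technical.

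Estrogen and progesterone reach high levels in late pregnancy. Their nuclear receptors are transcription factors that are held ready by the Hsp90 chaperone machinery, bind DNA once the hormone is bound, and recruit p160 coactivators of the Ncoa family, which bring histone acetyltransferases to the gene, or corepressors such as Ncor1, which bring histone deacetylases. A G protein-coupled receptor, Gper1, mediates rapid responses to estrogen at membranes, and the heme-binding Pgrmc proteins have been linked to rapid responses to progesterone and to cytochrome P450 activity. In the rodent heart, estrogen receptors are found in cardiomyocytes, vascular cells and fibroblasts.

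Of the 12 probe sets, 2 were higher in ILPD and 1 was lower at an adjusted p of 0.05 (limma, Benjamini-Hochberg over all 28826 probe sets). Gper1 and 1 of the Pgrmc1 probe sets rose, Ncoa1 fell, and 9 probe sets did not pass, among them all those of the nuclear receptors. The called share of members was 25%, against 2.81% of all probe sets, of which 1.96% were called higher and 0.857% lower. At an unadjusted p of 0.05 the members' count was 6 of 12, or 50%, against 18.3% of all probe sets. In 5 of 12 the ILPD and placebo arrays did not overlap, a share of 41.7% against 12.4% of all probe sets. The differences were small, since even the largest was 1.27-fold, in the brighter probe set annotated to Pgrmc1. Which transcript that probe set reads was not tested. Of the 12 differences, 5 were positive and 7 negative, with a median of -0.09 on the log2 scale against 0.02 over all probe sets. The 3 calls lay close to the threshold, with adjusted p between 0.0424 and 0.0484, and each was lost when any of several single arrays was left out. In bulk tissue, fewer cells of a type and less RNA per cell cannot be told apart.

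**Figure D1:**
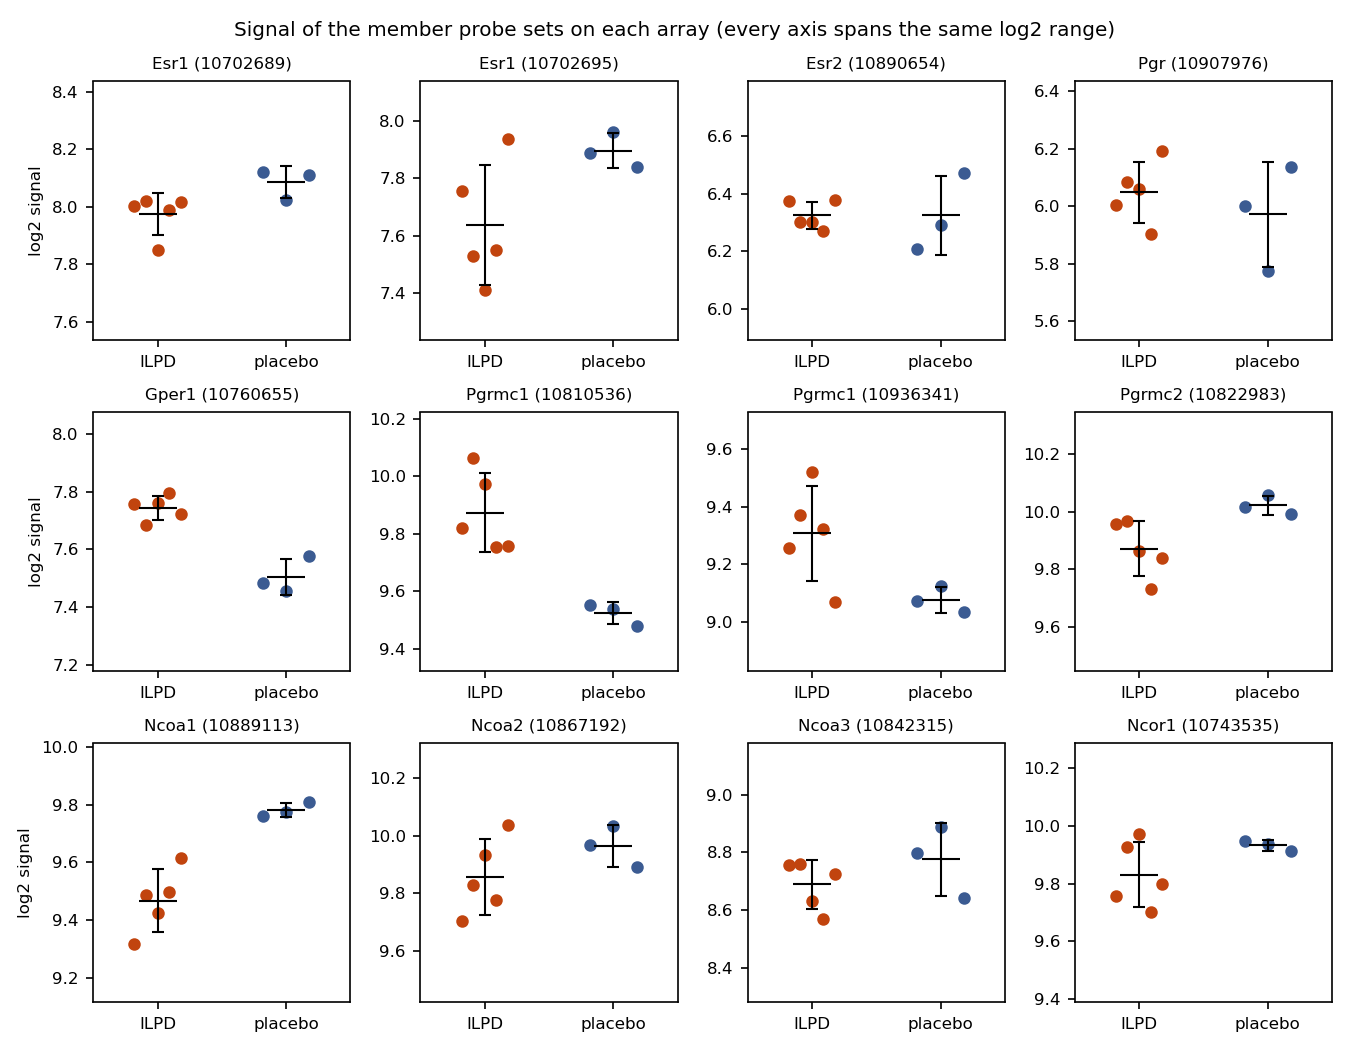
Log2 signal (vertical axes, which all span the same range) of each of the 12 probe sets of the 10 genes in the ILPD and placebo arrays, with a point per array, a horizontal line at the group mean and bars of 1 SD. The ILPD arrays of Gper1 and of the brighter Pgrmc1 probe set lie above every placebo array, and those of Ncoa1 lie below every placebo array.

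The nuclear receptors did not pass the test in either direction. Esr1, estrogen receptor alpha, was read by its brighter probe set, 10702689, at log2 signals of 8.003, 8.02, 7.85, 7.99 and 8.02 in ILPD arrays 1 to 5, against 8.12, 8.02 and 8.11 in placebo arrays 1 to 3. Every ILPD array was below every placebo array, but ILPD array 2 and placebo array 2 differed by less than this rounding shows. The means were 7.98 ± 0.07 in ILPD (SD, n = 5) and 8.09 ± 0.05 in placebo (SD, n = 3), a log2 difference of -0.11 with a 95% interval of -0.24 to 0.02 (limma adjusted p = 0.360). The second Esr1 probe set, 10702695, read 7.76, 7.53, 7.41, 7.55 and 7.93 in ILPD, against 7.89, 7.96 and 7.84 in placebo. ILPD arrays 1 to 4 were below every placebo array and ILPD array 5 was among them. Its log2 difference was -0.26, with a 95% interval of -0.50 to -0.02, and it passed only without adjustment (limma unadjusted p = 0.0380, adjusted p = 0.241). Both Esr1 probe sets thus gave a negative difference, and their mean gave -0.18 (limma adjusted p = 0.229).

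Esr2, estrogen receptor beta, had nearly equal means, 6.33 ± 0.05 in ILPD (SD, n = 5) and 6.32 ± 0.14 in placebo (SD, n = 3). ILPD arrays ranged from 6.27 to 6.38 and placebo arrays from 6.21 to 6.47, so the ILPD arrays lay wholly inside the placebo range. The 95% interval of the log2 difference, -0.15 to 0.15, leaves room for a small change of either sign. Pgr, the nuclear progesterone receptor, averaged 6.05 ± 0.11 in ILPD (SD, n = 5) and 5.97 ± 0.18 in placebo (SD, n = 3), with overlapping arrays and a log2 difference of 0.08 (95% interval -0.12 to 0.28, limma adjusted p = 0.711). The signals of Esr2 and Pgr stood at the 26th and 16th percentile of all probe sets, among the dimmest 40%. No detection call was used here, so whether these probe sets read transcript above background was not tested.

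Gper1 (probe set 10760655), the G protein-coupled estrogen receptor, rose in ILPD hearts. Its log2 signals were 7.76, 7.69, 7.76, 7.79 and 7.72 in ILPD, against 7.48, 7.46 and 7.58 in placebo. Every ILPD array was above every placebo array, and both groups were tight, with means of 7.74 ± 0.04 (SD, n = 5) and 7.51 ± 0.06 (SD, n = 3). The log2 difference was 0.24 (SE 0.05, 95% interval 0.12 to 0.36, 1.18-fold, limma adjusted p = 0.0453). All probe sets of similar signal, between 7 and 8, had a median difference of 0.06. The call was lost after quantile normalization (0.16, adjusted p = 0.177), after cyclic loess normalization (0.18, adjusted p = 0.123) and whichever single array was left out (adjusted p 0.0546 to 0.152), and it held in 2 of 14 alternatives, with a positive difference in all 14.

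Probe sets annotated to Pgrmc1 and to Pgrmc2 gave RNA differences of opposite sign, of which only that of the brighter Pgrmc1 probe set was called. Pgrmc1 was read at 9.82, 10.06, 9.97, 9.75 and 9.76 by its brighter probe set, 10810536, in ILPD, against 9.55, 9.54 and 9.48 in placebo. All 5 ILPD arrays were above the 3 placebo arrays, which lay within a narrow range. The means were 9.87 ± 0.14 in ILPD (SD, n = 5) and 9.52 ± 0.04 in placebo (SD, n = 3), a log2 difference of 0.35 (SE 0.08, 95% interval 0.17 to 0.53, 1.27-fold, limma adjusted p = 0.0484). All probe sets with signals between 9 and 10 had a median difference of -0.05. The call held in 5 of 14 alternatives, and in quantile and cyclic loess normalization its adjusted p was 0.0253 and 0.0198. It was lost whichever single array was left out, ILPD array 5 excepted, and its adjusted p then reached 0.143.

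The second Pgrmc1 probe set, 10936341, read 9.26, 9.37, 9.52, 9.32 and 9.07 in ILPD, against 9.07, 9.12 and 9.03 in placebo. ILPD arrays 1 to 4 were above every placebo array, and ILPD array 5 was within the placebo range. Its log2 difference was 0.23 (95% interval 0.03 to 0.43, limma unadjusted p = 0.0280, adjusted p = 0.211), and the mean of both probe sets gave 0.29 (adjusted p = 0.0852), which missed the threshold. The numbers of the probe sets on the array set them apart further. Of the 10 named probe sets numbered nearest to the second one, 10 belonged to genes on chromosome X, where RefSeq (GRCr8) places Pgrmc1, but of the 10 nearest to the called one, 0 did and all 10 belonged to genes on chromosome 19, the mineralocorticoid receptor gene Nr3c2 among them. Each of the other 10 member probe sets had 9 or 10 such neighbours on its own gene's chromosome. Which transcript the called Pgrmc1 probe set reads was not tested.

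The 250 bases before the start of Pgrmc1 in RefSeq (GRCr8, chrX:120698360-120698609, plus strand) are shown because a probe set annotated as Pgrmc1 was called, and the same window of Ncoa1 because Ncoa1 was called (GRCr8, chr6:33195925-33196174, minus strand). Capitals mark matches on either strand to the GC box GGGCGG and to AGAACA, the core of a progesterone receptor site, which do not overlap here.
Pgrmc1: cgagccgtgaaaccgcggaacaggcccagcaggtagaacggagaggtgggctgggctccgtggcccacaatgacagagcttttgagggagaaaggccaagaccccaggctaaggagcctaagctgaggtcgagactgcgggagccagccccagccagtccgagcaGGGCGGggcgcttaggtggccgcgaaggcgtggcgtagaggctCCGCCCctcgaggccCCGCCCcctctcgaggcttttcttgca
Ncoa1: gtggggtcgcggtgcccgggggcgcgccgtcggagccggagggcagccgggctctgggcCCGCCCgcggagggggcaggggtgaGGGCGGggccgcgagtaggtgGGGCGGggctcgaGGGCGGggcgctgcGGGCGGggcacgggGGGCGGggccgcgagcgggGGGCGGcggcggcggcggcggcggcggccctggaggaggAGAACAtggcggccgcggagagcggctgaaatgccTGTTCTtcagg
The Pgrmc1 window holds 3 GC boxes and no AGAACA, and the Ncoa1 window holds 7 GC boxes and 2 AGAACA matches. Over 33469 promoters of the same length, 30.5% hold a GC box and 17.5% an AGAACA. The share of G and C letters is 66.8% in the Pgrmc1 window and 82.8% in the Ncoa1 window, against a median of 51.2% over all windows. The part of this composition in the GC box counts was not tested. Promoters of 7 of the 10 genes were matched (Esr1, Esr2, Pgr, Pgrmc1, Pgrmc2, Ncoa1 and Ncor1). Neither the palindromic estrogen response element GGTCANNNTGACC, which 0.0239% of all promoters hold, nor its shorter arm AGGTCA, which 14.1% hold, is written in any of the 7 windows. These matches describe letters and are not binding sites.

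Pgrmc2, the paralogue of Pgrmc1, read 9.96, 9.97, 9.86, 9.73 and 9.84 in ILPD, against 10.02, 10.06 and 9.99 in placebo. Every ILPD array was below every placebo array, though by a narrow margin in ILPD arrays 1 and 2. The log2 difference was -0.15 (95% interval -0.29 to -0.01) and did not pass after adjustment (limma unadjusted p = 0.0416, adjusted p = 0.251). Within each array, the brighter Pgrmc1 probe set minus Pgrmc2 was 0.00 ± 0.11 on the log2 scale in ILPD (SD, n = 5, range -0.14 to 0.11), against -0.50 ± 0.03 in placebo (SD, n = 3, range -0.52 to -0.46). The 2 ranges did not overlap, and the difference of 0.50 had an exact permutation p of 0.0179, the smallest that the 56 ways to part the arrays allow, and 0.0536 after adjustment over 6 pairs of related members. This contrast rests on the probe set numbered among chromosome 19 genes, and which transcript that probe set reads was not tested. The other Pgrmc1 probe set, numbered among chromosome X genes, was used as a choice made after seeing the data. With it, the within-array difference was -0.56 ± 0.18 in ILPD (SD, n = 5) and -0.95 ± 0.01 in placebo (SD, n = 3). The ranges, -0.77 to -0.34 in ILPD and -0.96 to -0.93 in placebo, again did not overlap, and the difference of 0.38 had an exact permutation p of 0.0357 (adjusted p = 0.107).

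Among the p160 coactivators, Ncoa1 (probe set 10889113), known as steroid receptor coactivator 1, fell. Its log2 signals were 9.32, 9.49, 9.42, 9.50 and 9.61 in ILPD, against 9.76, 9.78 and 9.81 in placebo. All 5 ILPD arrays were below the 3 placebo arrays, which differed little from each other. The means were 9.47 ± 0.11 in ILPD (SD, n = 5) and 9.78 ± 0.02 in placebo (SD, n = 3), a log2 difference of -0.31 (SE 0.07, 95% interval -0.47 to -0.16, limma adjusted p = 0.0424), or 1.24-fold lower. The call held in 4 of 14 alternatives and the difference was negative in all 14. It was lost after quantile normalization (adjusted p = 0.108), after cyclic loess normalization (adjusted p = 0.110) and whichever single array was left out, ILPD arrays 1 and 5 excepted (adjusted p as high as 0.126).

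Ncoa2 and Ncoa3, the other coactivators of the family, had smaller negative differences that did not pass. Ncoa2 averaged 9.86 ± 0.13 in ILPD (SD, n = 5, range 9.70 to 10.04) and 9.96 ± 0.07 in placebo (SD, n = 3, range 9.89 to 10.04), a log2 difference of -0.11 (95% interval -0.28 to 0.07, limma adjusted p = 0.526). Ncoa3 averaged 8.69 ± 0.09 in ILPD (SD, n = 5, range 8.57 to 8.76) and 8.78 ± 0.13 in placebo (SD, n = 3, range 8.64 to 8.89), a log2 difference of -0.09 (95% interval -0.25 to 0.08, limma adjusted p = 0.587). Ncor1, the nuclear receptor corepressor, gave -0.10 (95% interval -0.26 to 0.05, limma adjusted p = 0.491), with ILPD arrays from 9.70 to 9.97 and placebo arrays from 9.91 to 9.95. In all 3 genes the ILPD arrays overlapped the placebo arrays, and in Ncor1 the ILPD range enclosed the placebo range.

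Whether Ncoa1 moved apart from its relatives was tested within arrays. The log2 signal of Ncoa1 minus Ncoa2 was -0.39 ± 0.09 in ILPD (SD, n = 5) and -0.18 ± 0.09 in placebo (SD, n = 3), a difference of -0.21 (exact permutation p = 0.0179, adjusted p = 0.0536). Against Ncor1 the difference was also -0.21 (exact permutation p = 0.0536, adjusted p = 0.107), and against Ncoa3 it was -0.23 (exact permutation p = 0.0714, adjusted p = 0.107). Ncoa2 against Ncoa3 gave -0.02 (exact permutation p = 0.821), and Esr1 against Esr2 gave -0.11 (exact permutation p = 0.143, adjusted p = 0.171). None of the 6 pairs passed 0.05 after adjustment. With this many arrays, even a pair at the smallest p could not pass unless several other pairs had p-values near it. These adjusted values therefore do not decide whether Ncoa1 moved apart from its family. The ranges of Ncoa1 minus Ncoa2, -0.51 to -0.28 in ILPD and -0.26 to -0.08 in placebo, did not overlap.

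**Figure D2:**
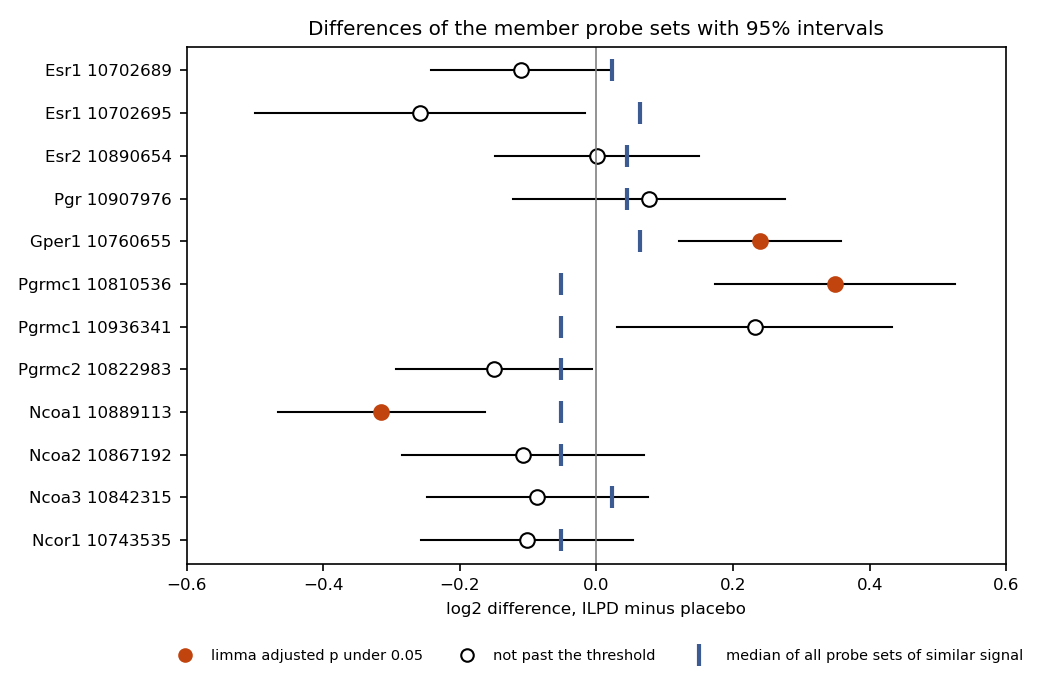
Log2 difference, ILPD minus placebo, of each of the 12 probe sets, with its 95% interval from limma (horizontal axis). Filled points passed an adjusted p of 0.05, and short vertical marks give the median difference of all probe sets of similar signal. Intervals of Gper1, the brighter Pgrmc1 probe set and Ncoa1 lie farthest from 0, and that of Esr2 is centred on 0.

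The outcome of the 3 calls across alternative settings was uneven. The brighter probe set annotated to Pgrmc1 ranged from 0.30 to 0.43 on the log2 scale, Ncoa1 from -0.37 to -0.26 and Gper1 from 0.16 to 0.28. Array weights kept all 3 past the threshold, the filter on the dimmest 40% of probe sets kept all 3, and the fit with an intensity trend kept none.

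**Figure D3:**
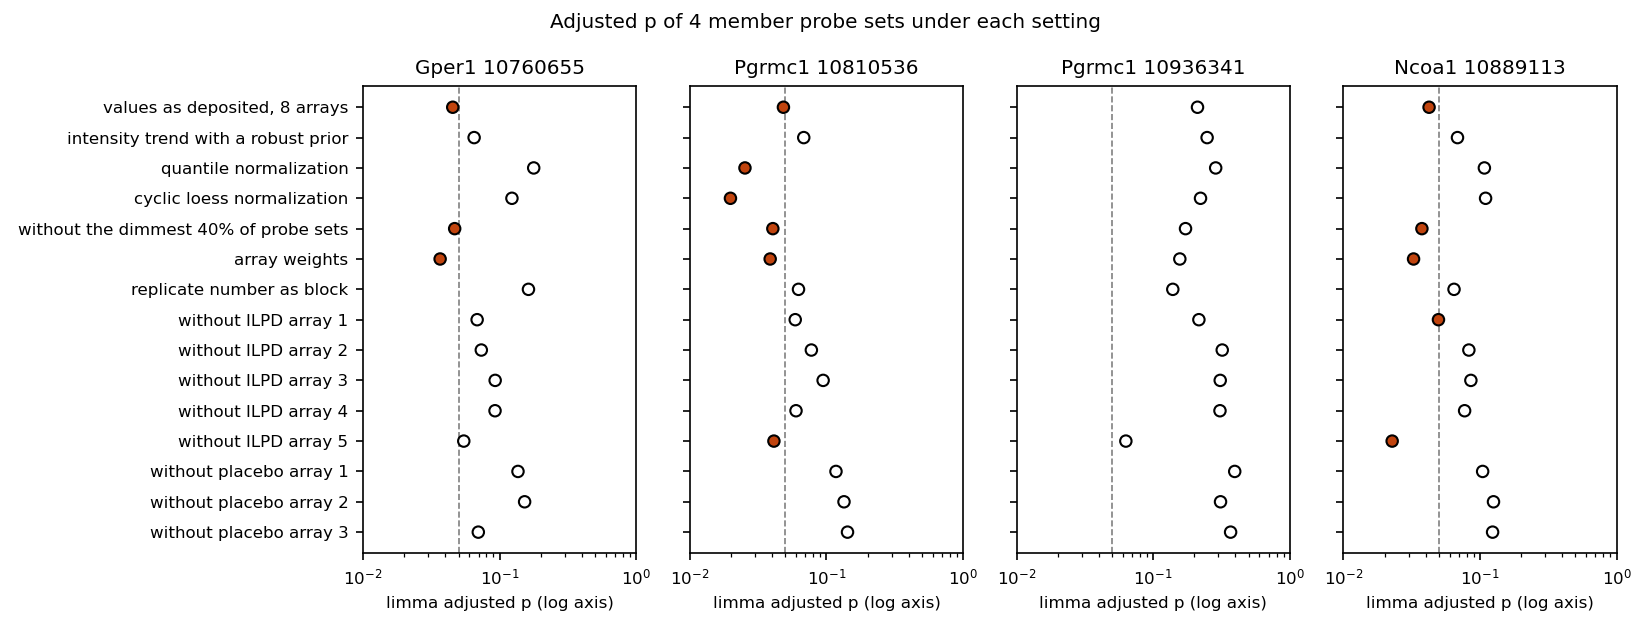
Adjusted p from limma (horizontal log axis, dashed line at 0.05, filled points past it) of Gper1, both Pgrmc1 probe sets and Ncoa1 with the values as deposited and in 14 alternatives (rows). Gper1 passes in 2 alternatives, the brighter Pgrmc1 probe set in 5, the second one in 0 and Ncoa1 in 4.

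The genes most like a called member were taken by the smallest root mean square difference of the 8 centred log2 values, among 14487 other genes. For the brighter probe set annotated to Pgrmc1 these were Pex11a (0.0458), Zfp866 (0.0510) and Trarg1 (0.0556). For Ncoa1 they were Ctdnep1 (0.0177), Prkd2 (0.0386) and Epn1 (0.0432), and for Gper1 they were Eny2 (0.0353), A630001G21Rikl (0.0385) and Pclaf (0.0390). The points share 8 arrays and their group difference, and likeness is a description.

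Of the ventricular cardiomyocyte markers, 12 of 12 were measured, each with a mean log2 signal between 12.44 and 14.57. Array medians were 7.16 to 7.20 in ILPD and 7.08 to 7.14 in placebo. The mean log2 level of the cardiomyocyte markers was 13.40 to 13.57 in ILPD and 13.56 to 13.66 in placebo, so the groups overlapped narrowly, with 0 of 12 positive and Tnnc1 lower (-0.37, limma adjusted p = 0.0195, lost in 5 of 14 alternatives). The direction of this list depended on the scaling, since its median log2 difference was -0.12 in the values as deposited, but 0.01 after quantile and 0.07 after cyclic loess normalization, with 0 lower calls in both. Smooth muscle and pericyte markers were at 10.11 to 10.30 in ILPD and 9.96 to 10.08 in placebo, without overlap, with 7 of 10 positive and Kcnj8 higher (0.64, limma adjusted p = 0.0120). T and NK cell markers, at 7.20 to 7.29 in ILPD and 7.02 to 7.15 in placebo (9 of 10 positive, Klrd1 higher by 0.52), and adipocyte markers, at 8.24 to 8.44 in ILPD and 8.13 to 8.21 in placebo (7 of 8 positive, Fabp4 higher by 0.82), also did not overlap between groups, and their median differences of 0.08 and 0.14 shrank to 0.03 and 0.06 after quantile normalization. Macrophage markers were at 9.34 to 9.77 in ILPD and 8.998 to 9.35 in placebo (8 of 10 positive, Cx3cr1 higher by 0.76), and neutrophil markers at 7.97 to 8.83 in ILPD and 7.67 to 8.16 in placebo (9 of 10 positive). Macrophage, neutrophil, endothelial, fibroblast and red cell markers overlapped between groups, the macrophage markers only narrowly. The higher marker calls were also not stable. Kcnj8 held in 12 of 14 alternatives, Fabp4 in 11, Klrd1 in 9, Cx3cr1 in 8 and the neutrophil marker Mmp9 in 2. Of all marker lists, the neutrophil and macrophage lists had the largest median log2 differences, 0.58 and 0.19. After quantile normalization these were 0.52 and 0.20. At a limma unadjusted p of 0.05 they counted 6 and 4 of 10 genes, where 18.3% of all probe sets passed. Smooth muscle and pericyte markers counted 5 of 10 and T and NK cell markers 4 of 10. The other marker lists counted from 0 (red cell) to 3 (cardiomyocyte). The cell types of the marker lists express several of the receptors, and the part of these shifts in the member differences was not tested.

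The machinery that holds steroid receptors ready showed the most calls of the pathway lists. Of 15 measured chaperones and immunophilins of the receptor complex, 8 fell and 0 rose, or 53.3% called, with a median log2 difference of -0.38, against 3.46% called and a median of 0.01 over all 14497 named genes. After cyclic loess normalization the list's median was -0.25, with 7 lower and 0 higher calls. Fkbp4, the immunophilin FKBP52 that progesterone receptor activity requires in mouse, had log2 signals of 10.10, 10.16, 9.60, 10.08 and 10.36 in ILPD, against 10.88, 10.85 and 10.97 in placebo. Every ILPD array was below every placebo array, by -0.84 on average (SE 0.14, limma adjusted p = 0.0165), though the call was lost whichever placebo array was left out (adjusted p of up to 0.0753). The other falls were in Dnajb1 (-2.89), an Hsp40 cochaperone, in the Hsp90 isoforms Hsp90aa1 (-1.35) and Hsp90ab1 (-0.59), in Stip1 (-1.27), which joins Hsp70 to Hsp90, and in St13 (-0.63), Hspa4 (-0.46) and Hspa8 (-0.38), with limma adjusted p between 9.42e-05 and 0.0294. Dnajb1, Hsp90aa1, Hsp90ab1, Stip1 and St13 held in all 14 alternatives, the only 5 of the 18 calls over the lists to do so. Ptges3, the p23 cochaperone, gave -0.33 (limma adjusted p = 0.0750), and Fkbp5, the immunophilin that opposes Fkbp4, gave 0.48 (adjusted p = 0.215). These genes also serve many proteins other than steroid receptors. The list was chosen with earlier results of these data known, so its share of calls is a description and not a test.

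Of the target gene lists of the receptors, only that of estrogen held calls in the values as deposited. Of 24 measured estrogen response genes, 3 rose and 1 fell, or 16.7% called, against 3.46% of all named genes. Their median log2 difference was 0.03. Rara, a retinoic acid receptor induced by estrogen in breast cancer cells, read 9.18, 9.15, 9.12, 9.24 and 9.17 in ILPD, against 8.94, 8.82 and 8.91 in placebo, all higher in ILPD (0.28, SE 0.05, limma adjusted p = 0.0266). Cxcl12, a chemokine, gave 0.45 (adjusted p = 0.0330), Cyp1b1, which hydroxylates estradiol, gave 0.66 (adjusted p = 0.0495), and the lysosomal protease Ctsd gave -0.30 (adjusted p = 0.0410), and each of the 4 calls was lost in 7 or more of the 14 alternatives. Other targets known from estrogen studies did not pass: Igf1 gave 0.15 (adjusted p = 0.563), Nos3 gave 0.04 (adjusted p = 0.910) and Fos gave -0.02. Of 20 measured progestin-responsive genes, many of which glucocorticoids also induce, 0 passed by limma, with a median log2 difference of 0.07. At an unadjusted p of 0.05 the count was 7 of 20, where 18.3% of all probe sets passed. The leading ones were Errfi1 at 0.69 (adjusted p = 0.123) and Sgk1 at 0.50 (adjusted p = 0.199). Which target list held calls depended on the setting. With the replicate block the progestin list held 2 higher calls and the estrogen list 1. After quantile normalization neither held a call, and after cyclic loess normalization the estrogen list held 2. The estrogen list held 0 whichever placebo array was left out, and the progestin list held 1 without placebo array 3.

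Further coregulators and relatives of the receptors were mostly not called. Of 31 other coactivators and corepressors, 1 fell and 0 rose, or 3.23% called, against 3.46% of all named genes. The median log2 difference of this list was -0.11. After quantile and after cyclic loess normalization the calls turned to 1 higher and 0 lower, and the median shrank to -0.07 and -0.05. Carm1, the arginine methyltransferase that works with p160 coactivators, read 10.25, 10.30, 10.40, 10.27 and 10.48 in ILPD, against 10.62, 10.75 and 10.66 in placebo, which was lower in each ILPD array (-0.33, limma adjusted p = 0.0328, lost in 10 of 14 alternatives). The acetyltransferase Ep300 gave -0.35 (adjusted p = 0.0547) and the helicase coactivator Ddx5 gave 0.49 (adjusted p = 0.0574). Of 13 other nuclear receptors, 1 fell, or 7.69%. It was the orphan receptor Esrrg (-0.37, limma adjusted p = 0.0291, lost in 7 of 14 alternatives). The glucocorticoid receptor Nr3c1 gave -0.25 (limma adjusted p = 0.0743).

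Genes of steroid handling and of rapid signalling gave scattered calls, to be read beside the 3.46% called over all named genes. Of 21 genes of sex steroid synthesis and inactivation, 2 rose, or 9.52%: Sult1a1, a sulfotransferase (0.76, limma adjusted p = 0.0375, lost in 5 of 14 alternatives), and Cyp1b1. Of 12 membrane progestin receptors and Pgrmc partners, 0 passed by limma, with 4 at an unadjusted p of 0.05, which 18.3% of all probe sets reached. The leading ones were the membrane progestin receptor Paqr7 at 0.37 (limma adjusted p = 0.0664) and Insig1, a sterol sensor that binds Pgrmc1, at -0.27 (adjusted p = 0.227). Of 21 genes of rapid estrogen signalling, 1 rose and 1 fell, or 9.52% called. The higher one was the protease Mmp9 (0.58, limma adjusted p = 0.0466, past the threshold in 2 of 14 alternatives), which also stands among the neutrophil markers. The lower one was the transcription factor Creb1 (-0.35, limma adjusted p = 0.0462, past it in 5 of 14). Of 16 receptors for other hormones of pregnancy, 1 rose, or 6.25%. It was the vasopressin receptor Avpr1a, at 7.75, 7.81, 7.64, 7.83 and 7.87 in ILPD, against 7.38, 7.30 and 7.27 in placebo. Every ILPD array of Avpr1a was above every placebo array (0.46, SE 0.06, limma adjusted p = 0.00759). This call was lost only with the replicate number as a block (limma adjusted p = 0.0514), a fit in which ILPD arrays 4 and 5 add nothing to the difference.

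**Figure D4:**
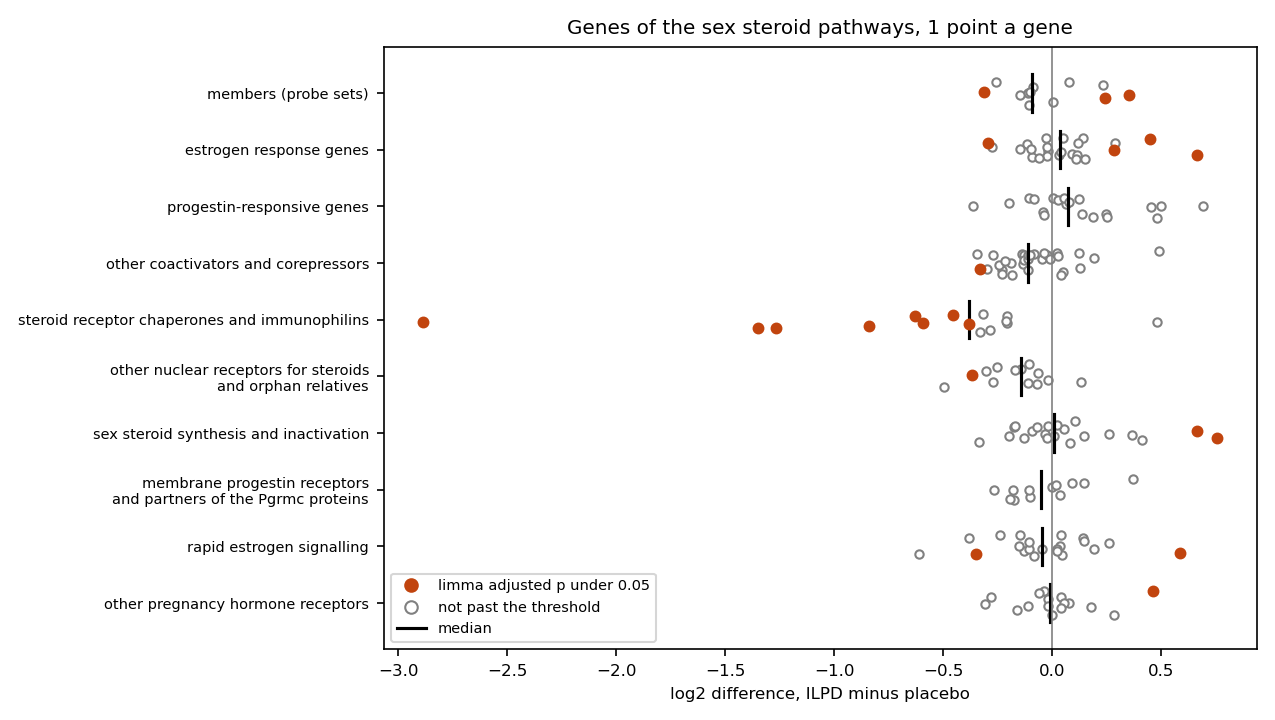
Log2 difference, ILPD minus placebo (horizontal axis), of the 12 member probe sets (top row) and of each measured gene of the 9 pathway lists (other rows), with called genes filled and a vertical line at each row's median. The chaperone and immunophilin row extends farthest below 0, to -2.89 in Dnajb1, and the medians of the other lists lie between -0.14 and 0.07.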

How the data were processed

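Total RNA of rat left ventricle was read on 8 Affymetrix arrays. The deposited log2 values were used as given by the authors. Their scale was read from their range. Their normalization was not given in the sources used here, and R 2.14.2 is named in the submitters' processing notes. Names came from the platform annotation, updated by gene ID through RefSeq (GRCr8): 15209 probe sets had 1 symbol, 306 several and 13311 none, and 15178 of the first kind matched by ID.

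ILPD minus placebo was fitted in R 4.3.3 by limma 3.58.1 (linear model, moderated variances with one constant prior, two-sided, no covariate) over all 28826 probe sets with Benjamini-Hochberg adjustment at 0.05. The test was checked on simulated data. In lists, the probe set with the highest mean stood for a gene. Pairs of members were compared by two-sided exact permutation. Python 3.11.15 and matplotlib 3.10.9 drew the figures. The number of arrays limits the precision, and no signal of background was used. Levels of different probe sets cannot be compared.

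Members, lists and tests were chosen with earlier results of these data known. The text names every member, the called genes of each pathway list or else its leading 2 by size, the called marker genes, genes of prior interest, and for 3 members the 3 genes most like each. Each result was recomputed with quantile or cyclic loess normalization, with an intensity trend and robust prior, without the dimmest 40% of probe sets, with array weights, with a replicate block, at other thresholds, with probe sets of a gene averaged, and without each array. The alternative for linear values was not needed.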

Additional observations from a re-analysis of the deposited data

Results flagged for a closer look

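In the brighter Esr1 probe set, ILPD array 3 stood apart from the other ILPD arrays, at a log2 signal of 7.849 with the next lowest at 7.99. Its gap was 0.824 of the group's range, above the 95% limit of Dixon's test for 5 samples. Of 12 groups of ILPD values looked at, 1 stood out in this way, and chance flags about 1 in 20.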

How the results depend on the processing

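Counts of member calls depended on the setting. The 2 higher calls became 0 with the intensity trend, 1 with quantile and 1 with cyclic loess normalization, and 0 with the replicate block, and ranged from 0 to 1 when single arrays were left out. The 1 lower call became 0 with the intensity trend, quantile normalization, cyclic loess normalization and the replicate block, ranged from 0 to 1 without single arrays, and became 3 at an unadjusted p of 0.05. Over the 9 pathway lists, the 6 higher calls became 3 with the intensity trend and 3 with quantile normalization and ranged from 1 to 6 without single arrays. The 12 lower calls ranged from 6 to 12 without single arrays, and numbered 13 with array weights and 13 without the dimmest 40% of probe sets. Calls over all probe sets numbered 459 with the replicate block, against 811 without it. Replicate numbers 4 and 5 occur only in ILPD, so with this block those arrays add nothing to the group difference. Calls lost there may reflect fewer arrays, which was not tested. The deviations of same-numbered arrays correlated at 0.221, -0.0642 and -0.098, and those of differently numbered arrays at -0.165 to 0.247. With so few arrays these values cannot tell whether the replicate numbers pair the samples. Differences of the members kept their sign in every alternative, except Esr2 (same sign in 7 of 13) and Pgr (12 of 13), and among the pairs the uncalled difference of Ncoa2 against Ncoa3 changed sign in some. The cause of these changes was not tested. No background signal was used, so the limit on the dim Esr2 and Pgr signals is unknown.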
